A study of Mus musculus with 17 samples.

Results

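The ATF4 amino acid response genes comprised 33 of the 19152 genes in the files, listed by gene name. They were Atf4 itself, its partner and feedback genes, enzymes that make serine, folate-bound carbon units and other amino acids, and amino acid transporters. The list was drawn up with earlier results of these data known, so counts of members passing are descriptions and not independent support. All 33 were found, and 31 of them entered the tests, having a group mean of 1 FPKM (a fragment count scaled to transcript length and library size) or more in any of the 4 groups. Stc2 and Cth did not reach it and are given as levels only. RNA-Seq had been run on dorsal root ganglia (DRGs), which hold the cell bodies of sensory neurons, from C57BL/6 mice. Control mice carried floxed Mtor alleles and no Cre (Mtor fl/fl, titled WT), and Mtor-cKO mice carried the same alleles and Adv-Cre, so both genotypes share the floxed alleles and only the second can lose Mtor. Either untouched mice (baseline) or mice 7 days after spared nerve injury (SNI) of both sides were sampled, giving 4 baseline and 5 day 7 Mtor fl/fl libraries and 4 Mtor-cKO libraries at each time, 17 in all. A library is 1 mouse with its L4 and L5 ganglia of both sides pooled. The groups set the response to nerve injury with and without Mtor in sensory neurons side by side. Adv-Cre acts in primary sensory neurons, so the glia, macrophages and vessels of the ganglion keep Mtor, and the baseline mice had no operation, so surgery and nerve injury cannot be told apart.

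ATF4 is a transcription factor whose own mRNA is translated better when the initiation factor eIF2 is phosphorylated, as happens when amino acids run short or proteins misfold. It binds, with C/EBP-family partners, to elements near genes that import and synthesize amino acids, and it also induces CHOP (Ddit3), which acts with it on stress genes. In dividing cells mTORC1, the nutrient-sensing complex built on the mTOR kinase, is known to raise ATF4 as well, and DRG neurons are known to induce stress transcription factors after axons are cut.

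Libraries held between 17060876 and 21076542 expected counts. Mtor ranged from 8.58 to 15.97 FPKM in Mtor fl/fl and from 3.16 to 6.36 FPKM in Mtor-cKO baseline libraries, and from 5.96 to 14.43 FPKM and from 3.44 to 5.83 FPKM at day 7, with a log2 fold change between genotypes of -1.10 (adjusted p = 0.0154) at baseline and -0.91 (adjusted p = 0.0227) at day 7. All 10 sensory neuron markers were present in every library, and 8 of 8 markers of injured neurons rose with injury in each genotype. Mtor fl/fl baseline replicates 3 and 4 and day 7 replicate 5 stood apart from the other Mtor fl/fl libraries on the third principal component (13.62% of the variance). Their summed sensory neuron markers were 3768.3, 3817.6 and 3621.3 FPKM, against 4663 to 4918.2 FPKM in the other 6, and their satellite glia markers were 4532.7, 4349 and 4585 FPKM, against 2329.6 to 3198.9 FPKM. The counts of each comparison, and the values of members that moved most on leaving these libraries out, are given with and without them. With them left out, every Mtor fl/fl library lay above every Mtor-cKO library (3699.5 to 4181.7 FPKM) in summed sensory neuron markers. Skeletal muscle markers were highest in Mtor-cKO baseline replicate 2 (566.1 FPKM) and day 7 replicate 1 (501.4 FPKM), against at most 86 FPKM elsewhere. Fewer cells of a type and less RNA per cell cannot be told apart in whole ganglia.

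The promoters were read first, because the element that ATF4 and C/EBP proteins share is short and can be looked for directly. RefSeq windows on GRCm38.p6, 250 bases before to 50 bases after the annotated start, were at hand for 28 of the 33 members (not for Aldh1l2, Cth, Slc7a5, Slc7a3 or Slc1a5). The motif TGATGNAA, searched on both strands, was present in the windows of 9 of these 28 members (32.1%), beside 4.51% of all 27025 genes with a window. The cAMP response element TGACGTCA, its own reverse complement, was in none of the 28 and in 2.03% of all genes. A match describes letters in the window and is not a measured site. The windows below show the matched motif in capitals with up to 26 bases on either side, 5′ to 3′ on the strand of the gene and entirely before the start. Capitals reading TTGCATCA or TTACATCA are the motif on the opposite strand.
Chac1: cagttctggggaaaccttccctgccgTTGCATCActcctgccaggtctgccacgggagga
Asns: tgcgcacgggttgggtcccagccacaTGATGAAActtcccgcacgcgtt
Slc7a11: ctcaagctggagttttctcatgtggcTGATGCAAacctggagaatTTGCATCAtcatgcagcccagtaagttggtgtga
Pck2: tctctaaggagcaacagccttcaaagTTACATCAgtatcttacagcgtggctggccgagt
Pycr1: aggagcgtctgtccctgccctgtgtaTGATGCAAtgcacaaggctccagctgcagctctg
Nupr1: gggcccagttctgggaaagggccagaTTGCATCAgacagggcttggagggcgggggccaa

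The match in Chac1 lay 193 to 186 bases before the start (Chac1 window, chr2:119351023-119351082 on the plus strand), the only one of the 6 farther than 110 bases away. In Asns it lay 23 to 16 bases before the start (Asns window, chr6:7693210-7693258 on the minus strand), the closest of the 6 to it. Slc7a11 held a pair of matches in opposite orientation, 66 to 59 and 47 to 40 bases before the start (Slc7a11 window, chr3:50443627-50443705 on the minus strand), and was the only member with more than 1. Pck2 (Pck2 window, chr14:55540137-55540196 on the plus strand) and Pycr1 (Pycr1 window, chr11:120643818-120643877 on the minus strand) had theirs at the same distance, 103 to 96 bases, on opposite strands. In Nupr1 the match lay 110 to 103 bases before the start (Nupr1 window, chr7:126625547-126625606 on the minus strand). The other 3 members with a match were Vldlr, in 1 of its 2 annotated starts, Slc1a4, across the start itself, and Trib3, just inside the transcript. Members with and without the motif in the window both occurred among those that rose with injury in Mtor fl/fl mice. Chac1, Asns and Slc1a4 held it there, while Atf4, Ddit3, Sesn2, Mthfd2, Shmt2 and Psat1 did not. Slc7a5 and Slc7a3, which also rose, had no window, and bases outside the windows were not searched.

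**Figure D1:**
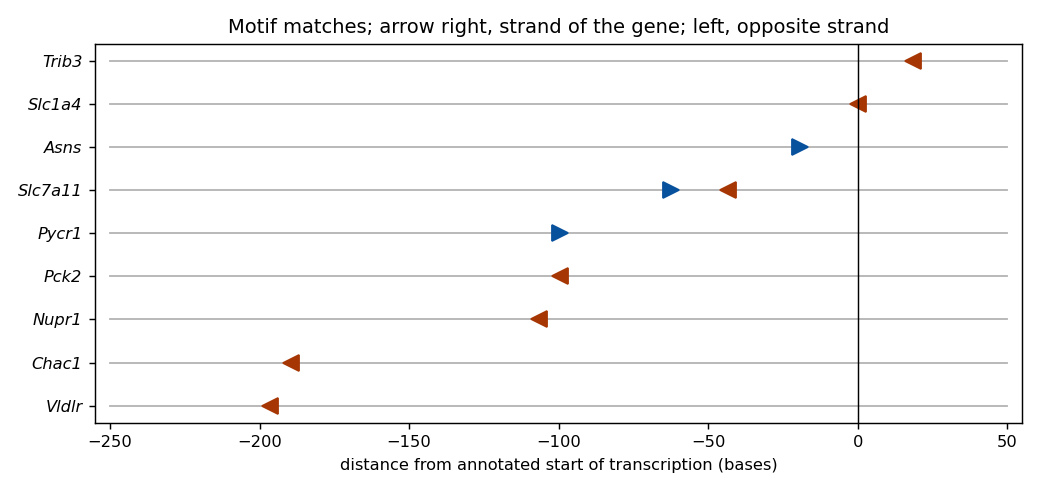
Positions of TGATGNAA matches in the 9 member promoters that hold one, as distance in bases from the annotated start (vertical line), each grey line a window of 300 bases and each arrow 1 match, pointing right on the strand of the gene. Slc7a11 is the only member with 2 matches, and the match of Trib3 is the only one wholly past the start.

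Taking the members by role, the transcription factors came first. Atf4 was the most abundant member, with a mean of 115.8 FPKM over all libraries. In Mtor fl/fl mice, Atf4 was at 95.8, 97.3, 131 and 118 FPKM in baseline replicates 1 to 4 and at 147, 144, 174, 136 and 179 FPKM in day 7 replicates 1 to 5. In Mtor-cKO mice it was at 79.5, 83.9, 83.5 and 86.5 FPKM at baseline and at 105, 108, 101 and 101 FPKM at day 7. Every injured Mtor fl/fl library lay above every other library, every injured Mtor-cKO library lay above every Mtor-cKO baseline library, and every baseline Mtor-cKO library lay below every other library. The log2 fold change of Atf4 with injury was 0.50 (SE 0.08, adjusted p = 7.05e-04) in Mtor fl/fl and 0.30 (SE 0.08, adjusted p = 0.0342) in Mtor-cKO mice. Between the genotypes it was -0.41 (SE 0.08, adjusted p = 0.00303) at baseline and -0.60 (SE 0.08, adjusted p = 5.58e-05) at day 7. The interaction, -0.20 (adjusted p = 0.477), did not pass. Mtor fl/fl baseline replicates 3 and 4 had sensory neuron sums in the range of Mtor-cKO baseline libraries (3699.5 to 3906.1 FPKM) and the higher Atf4 values of their group, and day 7 replicate 5, with the lowest sensory neuron sum of all libraries, had the highest Atf4. Without these 3 libraries, Atf4 was lower in Mtor-cKO DRGs by -0.29 (adjusted p = 0.0116) at baseline and -0.57 (adjusted p = 1.43e-05) at day 7. The Mtor fl/fl libraries then left had sensory neuron sums of 4663 to 4918.2 FPKM, above every Mtor-cKO library (up to 4181.7 FPKM). Genotype and neuron content cannot be told apart in that fit, and the part of neuron content in Atf4 was not tested.

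Ddit3 encodes CHOP, the C/EBP-family factor that ATF4 induces. Ddit3 read 17.1, 19.5, 28.7 and 21.4 FPKM across the 4 Mtor fl/fl baseline mice and 26.8, 25.8, 31.8, 26.4 and 34.3 FPKM across the 5 injured ones. The Mtor-cKO values were 17.5, 21.8, 19.3 and 22.8 FPKM before injury and 21.9, 20.3, 21.2 and 21.4 FPKM after it. Injured Mtor fl/fl libraries were above all injured Mtor-cKO ones, while the baseline groups overlapped and 1 baseline library, Mtor fl/fl replicate 3, lay within the range of injured Mtor fl/fl DRGs. Ddit3 rose with injury in Mtor fl/fl mice by 0.42 (SE 0.10, adjusted p = 0.0109) on the log2 scale. In Mtor-cKO mice the estimate was 0.02 (SE 0.10, adjusted p = 0.904), and at day 7 the genotype difference was -0.51 (SE 0.10, adjusted p = 0.00124). The difference between the injury effects was not established, with an interaction of -0.40 (SE 0.14, adjusted p = 0.234).

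The other transcription factors did not pass in any comparison. Atf5, an ATF4-related factor that is translated under the same conditions, had group means of 58.1 ± 12.5 (SD, n = 4), 72.5 ± 12.4 (n = 5), 59.9 ± 4.12 (n = 4) and 68.2 ± 5.56 FPKM (n = 4) in Mtor fl/fl baseline, Mtor fl/fl day 7, Mtor-cKO baseline and Mtor-cKO day 7. Cebpg, a partner of ATF4, ranged only from 6.69 to 10.8 FPKM over the 17 libraries. Cebpb, another partner and a factor of myeloid cells, ranged from 3.54 to 12.3 FPKM, and Nupr1, a small chromatin protein induced by stress, from 6.76 to 22.5 FPKM. Both were highest outside the injured Mtor fl/fl group: Cebpb in Mtor-cKO day 7 replicate 1 and Nupr1 in Mtor fl/fl baseline replicate 3. Summed macrophage markers moved with Nupr1, at 341.1 and 426.8 FPKM in Mtor fl/fl baseline replicates 3 and 4, where Nupr1 was at 22.5 and 21.15 FPKM, against 93.1 and 89.1 FPKM in replicates 1 and 2, where it was at 6.80 and 6.76 FPKM. Mtor fl/fl day 7 replicate 4 went against this, with 408.1 FPKM of macrophage markers and 8.64 FPKM of Nupr1. The part of other cell types in the Nupr1 level was not tested.

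**Figure D2:**
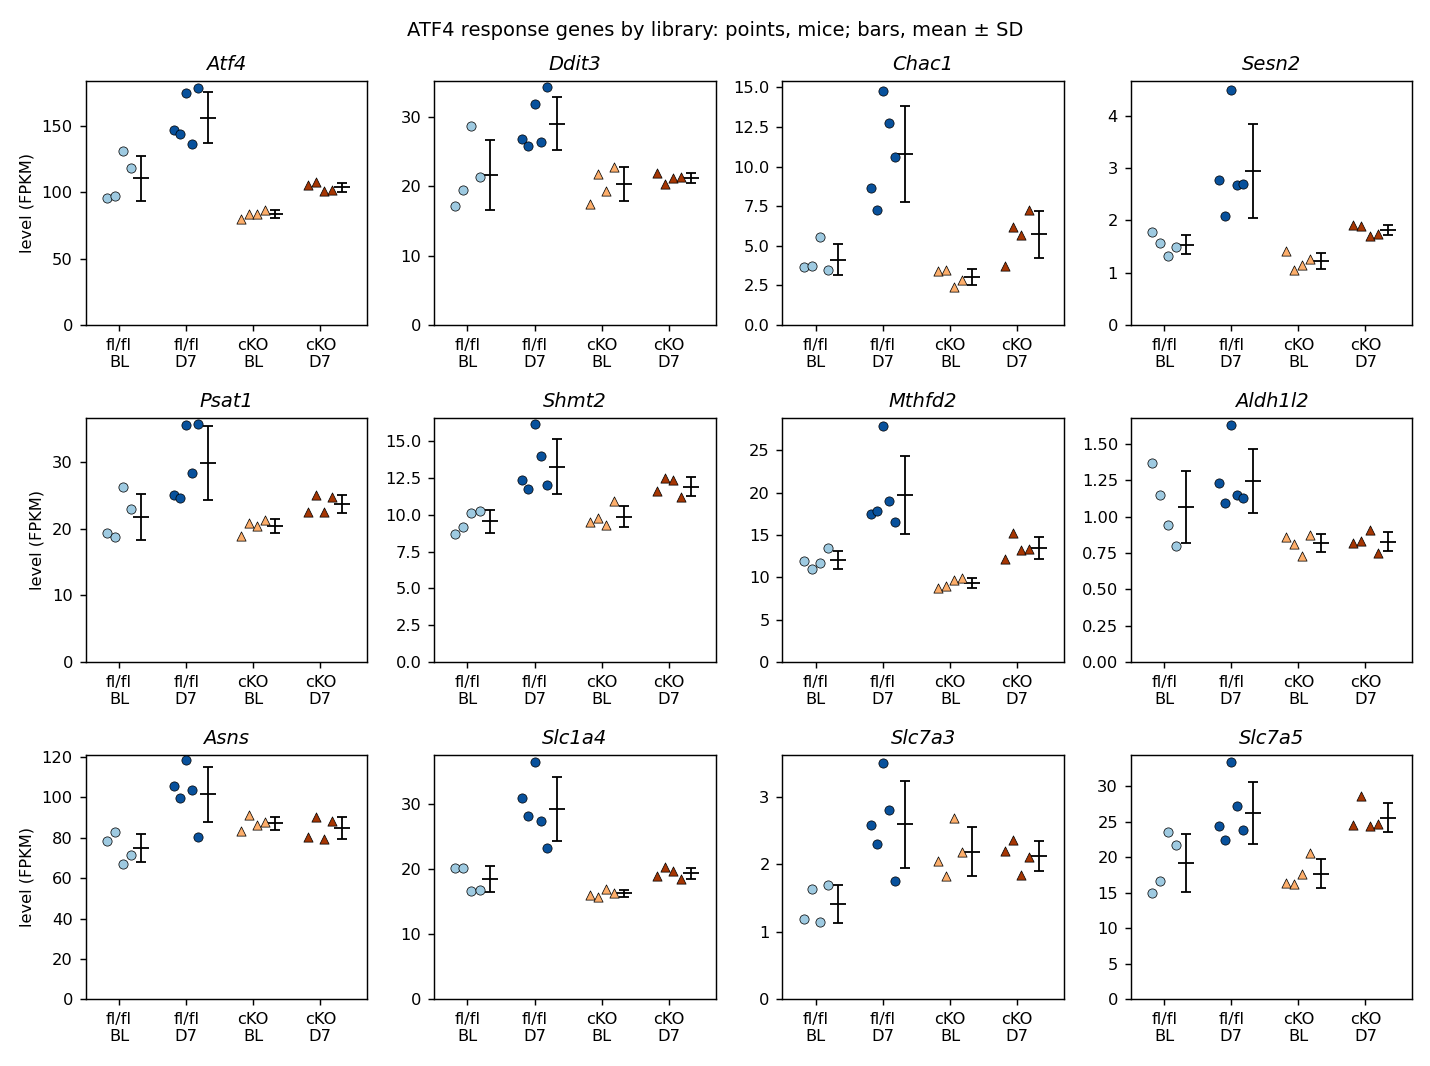
Levels in FPKM of 12 members in each library, by group (fl/fl, Mtor fl/fl; cKO, Mtor-cKO; BL, baseline; D7, day 7), each point 1 mouse and each bar the group mean ± SD. Injured Mtor fl/fl libraries are the highest group for Atf4, Chac1, Mthfd2 and Slc1a4, while for Slc7a5 both injured groups sit near each other, at 26.3 and 25.6 FPKM on average.

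Among the feedback and stress effectors, Chac1, which encodes an enzyme that breaks down glutathione and is a known shared target of ATF4 and CHOP, changed most. Baseline Mtor fl/fl libraries held Chac1 at 3.68, 3.75, 5.58 and 3.47 FPKM, and injured ones at 8.63, 7.27, 14.8, 12.8 and 10.6 FPKM. The Mtor-cKO libraries read 3.41, 3.5, 2.4 and 2.84 FPKM at baseline and 3.74, 6.16, 5.71 and 7.25 FPKM at day 7. All 5 injured Mtor fl/fl libraries exceeded every injured Mtor-cKO library, and in Mtor-cKO mice only day 7 replicate 1 came close to the baseline values. With injury the log2 fold change of Chac1 was 1.40 (SE 0.22, adjusted p = 8.24e-04) in Mtor fl/fl and 0.88 (SE 0.23, adjusted p = 0.0329) in Mtor-cKO mice, and between the genotypes at day 7 it was -0.95 (SE 0.22, adjusted p = 0.00445). The baseline difference, -0.43 (adjusted p = 0.247), and the interaction, -0.52 (adjusted p = 0.514), did not pass.

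Sesn2 encodes sestrin 2, a leucine sensor that restrains mTORC1. In Mtor fl/fl mice, Sesn2 was at 1.77, 1.56, 1.33 and 1.49 FPKM in baseline replicates 1 to 4 and at 2.77, 2.09, 4.49, 2.68 and 2.69 FPKM in day 7 replicates 1 to 5. In Mtor-cKO mice it was at 1.41, 1.05, 1.15 and 1.26 FPKM at baseline and at 1.91, 1.89, 1.71 and 1.75 FPKM at day 7. Injured Mtor fl/fl values all exceeded the injured Mtor-cKO values, and replicate 3 of the injured Mtor fl/fl mice was far above the other 4. The log2 fold change of Sesn2 was 0.94 (SE 0.19, adjusted p = 0.00471) with injury in Mtor fl/fl mice and -0.73 (SE 0.18, adjusted p = 0.00831) between genotypes at day 7. In Mtor-cKO mice the injured and baseline libraries did not overlap, yet the injury estimate, 0.55 (SE 0.20, adjusted p = 0.0968), did not pass.

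Trib3, a pseudokinase that ATF4 and CHOP induce and that inhibits ATF4 in return, was low, at 1.26 ± 0.403 FPKM in Mtor fl/fl (SD, n = 4) and 1.3975 ± 0.278 FPKM in Mtor-cKO mice (n = 4) at baseline, and at 2.02 ± 0.432 (n = 5) and 2.05 ± 0.359 FPKM (n = 4) at day 7. Its injury estimates, 0.69 (adjusted p = 0.0527) and 0.53 (adjusted p = 0.134), did not pass. Ddit4 encodes REDD1, an inhibitor of mTORC1 that hypoxia and glucocorticoids also induce. Its level was widely spread, from 13.6 to 49.8 FPKM, with the highest values in Mtor fl/fl baseline replicates 4 and 3. Vldlr, a lipoprotein receptor, stayed between 3.47 and 7.67 FPKM, and Stc2, a secreted glycoprotein, was at or under 0.3 FPKM in every library and was not tested.

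Serine synthesis from a glycolytic intermediate takes 3 enzymes in sequence, Phgdh, Psat1 and Psph, and of these only Psat1, the transaminase of the middle step, passed a test. Psat1 read 19.3, 18.7, 26.2 and 22.9 FPKM across the 4 Mtor fl/fl baseline mice and 25.02, 24.5, 35.6, 28.3 and 35.7 FPKM across the 5 injured ones. The Mtor-cKO values were 18.9, 20.8, 20.4 and 21.3 FPKM before injury and 22.6, 25.1, 22.4 and 24.7 FPKM after it. Day 7 replicates 3 and 5 were the highest Mtor fl/fl values, replicates 1 and 2 overlapped the injured Mtor-cKO libraries, and baseline replicate 3, at 26.2 FPKM, lay within the injured range. Psat1 rose with injury in Mtor fl/fl mice by 0.46 (SE 0.10, adjusted p = 0.00619) on the log2 scale and was lower in injured Mtor-cKO than in injured Mtor fl/fl DRGs, with a log2 fold change of -0.36 (SE 0.09, adjusted p = 0.0117). In Mtor-cKO mice the estimate was 0.19 (adjusted p = 0.234). Phgdh, the entry enzyme, ranged from 18.3 to 37.1 FPKM and Psph, the final phosphatase, from 5.89 to 12.6 FPKM. Phgdh was highest in Mtor fl/fl day 7 replicate 5 and baseline replicate 3, and Psph in baseline replicate 3 and day 7 replicate 5, all libraries with high satellite glia sums. Glia are a known site of serine synthesis in nervous tissue, and their part in these levels was not tested.

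The mitochondrial folate enzymes pass on carbon units from serine. Shmt2, which takes the unit from serine to form glycine, was measured as follows. Baseline Mtor fl/fl libraries held Shmt2 at 8.68, 9.14, 10.1 and 10.2 FPKM, and injured ones at 12.4, 11.7, 16.2, 13.98 and 11.99 FPKM. The Mtor-cKO libraries read 9.47, 9.75, 9.33 and 10.9 FPKM at baseline and 11.6, 12.5, 12.3 and 11.2 FPKM at day 7. Injured and baseline Mtor fl/fl values did not overlap, and the injured groups did, from 11.7 to 12.5 FPKM. Shmt2 rose with injury by 0.49 (SE 0.09, adjusted p = 0.00259) in Mtor fl/fl mice, and the Mtor-cKO estimate was 0.24 (adjusted p = 0.117). Mthfd2, the dehydrogenase of the next step and a gene that adult tissues usually hold low, gave clearer separation. In Mtor fl/fl mice, Mthfd2 was at 11.96, 10.96, 11.7 and 13.5 FPKM in baseline replicates 1 to 4 and at 17.5, 17.8, 27.8, 19.02 and 16.6 FPKM in day 7 replicates 1 to 5. In Mtor-cKO mice it was at 8.75, 8.98, 9.75 and 9.9 FPKM at baseline and at 12.2, 15.2, 13.2 and 13.4 FPKM at day 7. The 4 groups did not overlap except that 3 of the injured Mtor-cKO values fell within the Mtor fl/fl baseline range. Its log2 fold change with injury was 0.73 (SE 0.13, adjusted p = 0.00188) in Mtor fl/fl and 0.50 (SE 0.14, adjusted p = 0.035) in Mtor-cKO mice, and the genotype difference was -0.58 (SE 0.13, adjusted p = 0.00341) at day 7 and -0.36 (adjusted p = 0.0884), not passing, at baseline.

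Mthfd1l, which releases formate from mitochondria, went the other way between genotypes. Mthfd1l read 6.18, 6.4, 4.96 and 5.1 FPKM across the 4 Mtor fl/fl baseline mice and 7.29, 7.11, 7.48, 8.03 and 6.51 FPKM across the 5 injured ones. The Mtor-cKO values were 8.61, 8.6, 9.12 and 8.26 FPKM before injury and 8.81, 8.17, 8.36 and 9.63 FPKM after it. Each Mtor-cKO baseline library exceeded each Mtor fl/fl baseline library, and at day 7 the lowest Mtor-cKO value, 8.17 FPKM, was just above the highest Mtor fl/fl value, 8.03 FPKM. The baseline genotype difference was 0.60 (SE 0.12, adjusted p = 0.00286), and at day 7 it was 0.22 (adjusted p = 0.152). Without the 3 Mtor fl/fl libraries that stand apart, which hold the lowest Mthfd1l values of their groups, the differences were 0.38 (adjusted p = 0.00282) and 0.16 (adjusted p = 0.044). Aldh1l2, the mitochondrial enzyme that oxidizes formyl folate, was near 1 FPKM throughout. Baseline Mtor fl/fl libraries held Aldh1l2 at 1.37, 1.15, 0.94 and 0.80 FPKM, and injured ones at 1.23, 1.09, 1.63, 1.15 and 1.13 FPKM. The Mtor-cKO libraries read 0.86, 0.81, 0.73 and 0.87 FPKM at baseline and 0.82, 0.83, 0.91 and 0.75 FPKM at day 7. All injured Mtor fl/fl libraries were above all injured Mtor-cKO libraries, while at baseline the groups overlapped. The Aldh1l2 difference at day 7 was -0.61 (SE 0.17, adjusted p = 0.0177), and at levels this low the fold change rests on few reads. Aldh1l2 reached the filter of 1 FPKM through the Mtor fl/fl groups alone, the genotype in which it was higher, so this value too is a description and not support.

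Asns, asparagine synthetase, is a classical target gene of ATF4 and was the second most abundant member, with a mean of 88.1 FPKM. In Mtor fl/fl mice, Asns was at 78.3, 83.1, 67.3 and 71.8 FPKM in baseline replicates 1 to 4 and at 106, 99.95, 118, 104 and 80.6 FPKM in day 7 replicates 1 to 5. In Mtor-cKO mice it was at 83.6, 91.2, 86.3 and 88.1 FPKM at baseline and at 80.5, 90.3, 79.7 and 88.5 FPKM at day 7. Among injured Mtor fl/fl mice 4 of 5 exceeded all other libraries, and replicate 5, with the lowest sensory neuron sum, lay among the Mtor fl/fl baseline values. Asns rose by 0.44 (SE 0.12, adjusted p = 0.0324) on the log2 scale with injury in Mtor fl/fl mice, whereas the Mtor-cKO estimate was -0.07 (SE 0.13, adjusted p = 0.759). At day 7 the genotype difference was -0.30 (adjusted p = 0.0719), which did not pass with all libraries and was -0.40 (adjusted p = 1.70e-04) without the 3 Mtor fl/fl libraries that stand apart. Leaving out single Mtor fl/fl libraries also ended the injury call of Asns: its adjusted p was 0.1 and 0.0873 without baseline replicates 3 and 4, and 0.0682, 0.0545, 0.095 and 0.0668 without day 7 replicates 1 to 4.

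Gpt2, the mitochondrial alanine aminotransferase, had injury estimates of opposite sign in the genotypes, of which 1 passed. Gpt2 read 15.7, 14.9, 26.4 and 23.6 FPKM across the 4 Mtor fl/fl baseline mice and 14.8, 13.9, 14.9, 13.6 and 17.4 FPKM across the 5 injured ones. The Mtor-cKO values were 11.2, 10.8, 12.4 and 16.7 FPKM before injury and 18.2, 20.4, 18.98 and 17.1 FPKM after it. Within Mtor-cKO mice every injured library was above every baseline one, while in Mtor fl/fl mice baseline replicates 3 and 4 were the highest values of all groups and the other 2 lay among the injured ones. Gpt2 rose with injury by 0.52 (SE 0.14, adjusted p = 0.0355) in Mtor-cKO mice, and the Mtor fl/fl estimate was -0.41 (SE 0.13, adjusted p = 0.0794). At baseline it was lower in Mtor-cKO DRGs, with a log2 fold change of -0.64 (SE 0.14, adjusted p = 0.00572). The interaction was 0.93 (SE 0.19, adjusted p = 0.0923), which did not pass. It passed with DESeq2 (adjusted p = 0.00318), and with edgeR without Mtor-cKO baseline replicate 4 (0.0311), Mtor fl/fl baseline replicate 2 (0.0382), Mtor fl/fl day 7 replicate 5 (0.0393) or the 4 Mtor fl/fl libraries lowest in macrophage markers (0.0263). Without the 3 Mtor fl/fl libraries that stand apart, the baseline genotype difference was -0.34 (adjusted p = 0.0684) and the interaction 0.66 (adjusted p = 0.0625).

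The remaining enzymes passed in no comparison. Pck2, which makes phosphoenolpyruvate in mitochondria, ranged from 12.4 to 16.3 FPKM, Xpot, which exports tRNAs from the nucleus, from 12.7 to 15.7 FPKM, and Aldh18a1, which starts proline synthesis, from 5.33 to 8.79 FPKM. Pycr1, which completes proline synthesis, was at 1.1 ± 0.245 FPKM in Mtor fl/fl baseline (SD, n = 4) and 1.58 ± 0.292 FPKM in Mtor fl/fl day 7 mice (n = 5), with an injury estimate of 0.49 (adjusted p = 0.115). Cth, cystathionine gamma-lyase, stayed at or under 0.67 FPKM and was not tested.

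Of the amino acid transporters, Slc1a4, which exchanges alanine, serine and cysteine, separated the groups best. Baseline Mtor fl/fl libraries held Slc1a4 at 20.2, 20.3, 16.6 and 16.8 FPKM, and injured ones at 30.9, 28.2, 36.5, 27.4 and 23.3 FPKM. The Mtor-cKO libraries read 16.1, 15.7, 16.97 and 16.4 FPKM at baseline and 18.9, 20.4, 19.8 and 18.5 FPKM at day 7. Injured Mtor fl/fl libraries were above all others, and injured Mtor-cKO libraries were within the range of Mtor fl/fl baseline ones or at its upper edge. Slc1a4 rose with injury by 0.67 (SE 0.13, adjusted p = 0.00405) in Mtor fl/fl mice and was lower in injured Mtor-cKO than in injured Mtor fl/fl DRGs, with a log2 fold change of -0.63 (SE 0.13, adjusted p = 0.0022). Its Mtor-cKO injury estimate was 0.22 (adjusted p = 0.315), although the 4 injured values exceeded the 4 baseline values, and the interaction was -0.44 (adjusted p = 0.334).

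Slc7a3, a carrier of arginine and other cationic amino acids, was low. In Mtor fl/fl mice, Slc7a3 was at 1.19, 1.63, 1.15 and 1.69 FPKM in baseline replicates 1 to 4 and at 2.59, 2.31, 3.5, 2.81 and 1.76 FPKM in day 7 replicates 1 to 5. In Mtor-cKO mice it was at 2.05, 1.83, 2.69 and 2.19 FPKM at baseline and at 2.2, 2.36, 1.84 and 2.11 FPKM at day 7. All injured Mtor fl/fl values exceeded the baseline ones, and all Mtor-cKO baseline values exceeded the Mtor fl/fl baseline ones. The log2 fold change was 0.89 (SE 0.19, adjusted p = 0.0086) with injury in Mtor fl/fl mice and 0.69 (SE 0.20, adjusted p = 0.0292) between genotypes at baseline, while with injury in Mtor-cKO mice it was -0.14 (adjusted p = 0.691). The interaction of Slc7a3 was -1.03 (adjusted p = 0.147) with edgeR and -1.05 (adjusted p = 0.0262) with DESeq2, and with edgeR its adjusted p was 0.0414 without Mtor fl/fl day 7 replicate 5 and 0.048 without the 3 libraries that stand apart. Its baseline call was lost without Mtor fl/fl replicate 1 (adjusted p = 0.0796) or 3 (0.0908) and without Mtor-cKO replicate 1 (0.0619) or 3 (0.0924). Slc7a3 shares 1086 bases of its gene model with Snx12, and reads from the shared part could be counted to either.

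Slc7a5 and Slc3a2 encode the light and heavy chains of LAT1, the exchanger that brings leucine into cells. Slc7a5 read 14.9, 16.7, 23.5 and 21.7 FPKM across the 4 Mtor fl/fl baseline mice and 24.4, 22.4, 33.5, 27.3 and 23.9 FPKM across the 5 injured ones. The Mtor-cKO values were 16.4, 16.3, 17.7 and 20.6 FPKM before injury and 24.6, 28.6, 24.5 and 24.7 FPKM after it. In both genotypes the injured group was higher, with overlap in Mtor fl/fl mice at baseline replicate 3 and none in Mtor-cKO mice. Slc7a5 rose by 0.47 (SE 0.12, adjusted p = 0.0225) in Mtor fl/fl and 0.51 (SE 0.13, adjusted p = 0.0241) in Mtor-cKO mice, and the genotype difference at day 7 was -0.07 (adjusted p = 0.685). Without the 3 Mtor fl/fl libraries that stand apart, the Mtor fl/fl value was 0.72 (adjusted p = 0.00346). Its Mtor fl/fl call was lost without baseline replicate 1 (adjusted p = 0.0798) or 2 (0.0533) and without day 7 replicate 3 (0.0601) or 4 (0.0526).

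Baseline Mtor fl/fl libraries held Slc3a2 at 48.6, 47.9, 63.6 and 67.3 FPKM, and injured ones at 61.2, 54.6, 71.1, 66.1 and 67.3 FPKM. The Mtor-cKO libraries read 46.4, 47.9, 47.1 and 56.98 FPKM at baseline and 61, 59.5, 56.5 and 60.2 FPKM at day 7. The heavy chain was the more abundant of the pair in every library. For Slc3a2 only Mtor-cKO baseline replicate 4 reached the injured Mtor-cKO range. It rose with injury in Mtor-cKO mice by 0.23 (SE 0.07, adjusted p = 0.0487), and in Mtor fl/fl mice the estimate was 0.15 (adjusted p = 0.182).

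Slc7a11, the cystine carrier of system xc-, was at or under 1.46 FPKM in every library. In Mtor fl/fl mice, Slc7a11 was at 0.65, 0.48, 0.6 and 0.93 FPKM in baseline replicates 1 to 4 and at 0.46, 0.44, 0.98, 0.58 and 0.94 FPKM in day 7 replicates 1 to 5. In Mtor-cKO mice it was at 0.78, 0.72, 0.69 and 1.26 FPKM at baseline and at 1.46, 0.92, 1.38 and 1.18 FPKM at day 7. Injured Mtor-cKO values lay above most but not all injured Mtor fl/fl values, since Mtor fl/fl replicates 3 and 5 exceeded Mtor-cKO replicate 2. The estimate for Slc7a11 at day 7 was 0.86 (SE 0.24, adjusted p = 0.015) on the log2 scale. Slc7a11 reached the filter of 1 FPKM through the injured Mtor-cKO group alone, the group in which it was higher, so this value is given as a description and not as support, and its adjusted p was 0.0528 without Mtor-cKO replicate 1. Slc1a5, the glutamine carrier ASCT2, spread from 9.27 to 28.1 FPKM, with its highest values in Mtor fl/fl baseline replicates 4 and 3, and its day 7 difference of 0.64 (adjusted p = 0.0721) did not pass. Slc7a1, the general cationic amino acid carrier, was at 15.7 and 15.0 FPKM in those libraries and at 24.1 and 23.8 FPKM in baseline replicates 1 and 2, and passed in no comparison.

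**Figure D3:**
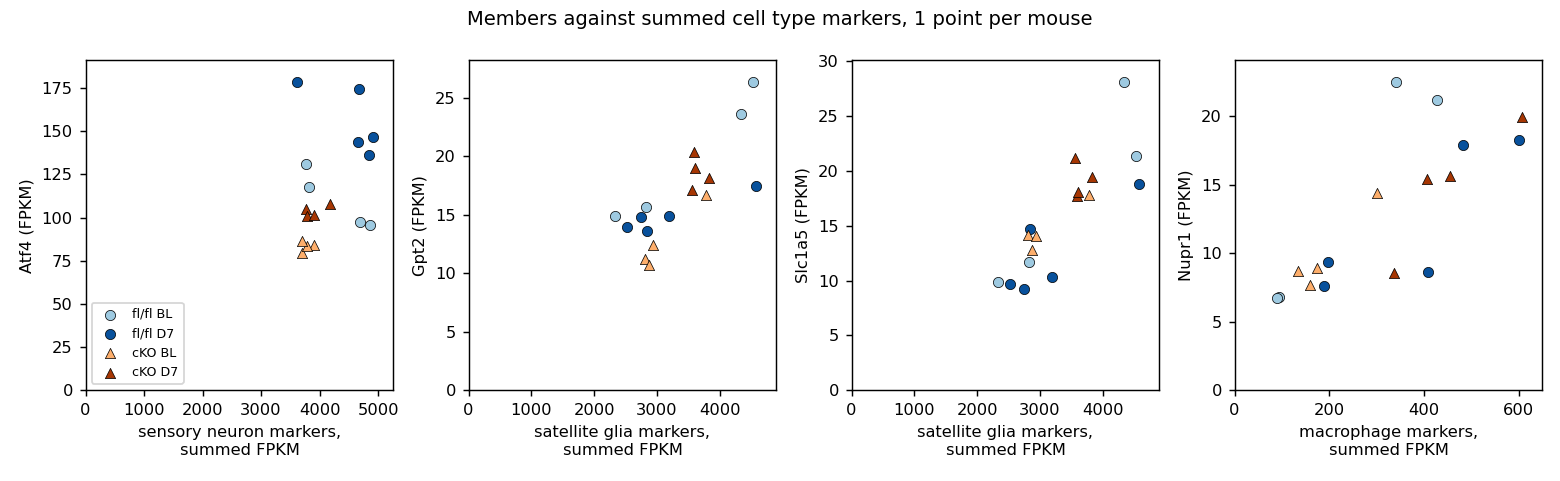
Levels in FPKM of Atf4, Gpt2, Slc1a5 and Nupr1 against the summed FPKM of sensory neuron, satellite glia or macrophage markers, each point 1 mouse, colours and shapes as in the key. The Mtor fl/fl baseline libraries split into a pair at 14.9 and 15.7 FPKM of Gpt2 and a pair at 23.6 and 26.4 FPKM, the latter with satellite glia sums of 4349 and 4532.7 FPKM.

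Set over all members, injury in Mtor fl/fl mice raised 11 of the 31 tested members and lowered none at an adjusted p under 0.05, where 4.66% of all 13408 genes tested were called higher and 2.58% lower. The 11 were Atf4, Ddit3, Chac1, Sesn2, Psat1, Shmt2, Mthfd2, Asns, Slc7a5, Slc7a3 and Slc1a4. Their increases were small, and only Chac1 exceeded a fold of 2. Of the 625 genes called higher, 140 exceeded that fold, which is 1.04% of all 13408 genes tested. The median log2 fold change was 0.34 over the members and -0.01 over all genes. At an unadjusted p under 0.05, 16 members were higher and 2 lower, for which the share of all genes was not counted. DESeq2 called 13 higher and 1 lower, beside 6.1% and 4.3% of all genes. Without Mtor-cKO baseline replicate 4 or Mtor fl/fl baseline replicate 2, 1 member was lower, beside 2.44% and 2.62% of all genes. With only the Mtor fl/fl libraries in the fit, 4 members passed: Atf4, Chac1, Mthfd2 and Shmt2, beside 1.92% of all genes called higher. These were also the members called under every alternative other than a fold above 2. With the 3 libraries that stand apart left out, 16 passed, beside 8.67% of all genes. Of the sensory neuron markers 2 of 10 were lower with injury, and summed macrophage markers were 89.1 to 426.8 FPKM at baseline and 188 to 600.7 FPKM at day 7, with overlap. The part of these cells in the differences was not tested.

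Day 7 after SNI in Mtor-cKO mice, 6 of 31 members were higher and none lower, beside 4.57% and 2.39% of all genes. These were Atf4, Chac1, Mthfd2, Gpt2, Slc7a5 and Slc3a2. The median over members was 0.23. At an unadjusted p under 0.05, 12 were higher and none lower, for which the share of all genes was not counted. DESeq2 called 7 and 0, beside 6.73% and 6.9% of all genes. The 6 calls had adjusted p-values between 0.0241 and 0.0487 and depended on single libraries: none passed without Mtor-cKO baseline replicate 1, 2 or 3 or day 7 replicate 2, 1 passed without day 7 replicate 3, and 2 passed without day 7 replicate 1 or 4. In these fits 2.28% to 3.63% of all genes were called higher. With 1 library left out the adjusted p reached 0.104 for Atf4, 0.11 for Chac1, 0.112 for Mthfd2, 0.127 for Gpt2, 0.0875 for Slc7a5 and 0.151 for Slc3a2. With only Mtor-cKO libraries in the fit 15 members passed, beside 16.9% of all genes called higher. The fit of only Mtor fl/fl libraries gave 4, beside 1.92%, so the order of the genotypes in the main fit was reversed. In Mtor-cKO mice 13 passed without the 3 Mtor fl/fl libraries that stand apart, beside 15.3%, so calls became more frequent over all genes too. Cell markers moved with injury as well. Summed macrophage markers were 133.6 to 300.9 FPKM at baseline and 337.4 to 607.4 FPKM at day 7, without overlap, and 1 of 15 passed. Of satellite glia markers 1 of 9 and of myelinating Schwann cell markers 1 of 8 rose, and of sensory neuron markers 2 of 10 fell. Their part in the changes of the members was not tested.

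Between the genotypes at baseline, 2 members were lower in Mtor-cKO DRGs (Atf4 and Gpt2) and 2 higher (Mthfd1l and Slc7a3), beside 7.91% and 7.97% of all genes. Of the sensory neuron markers 3 of 10 were lower and 1 higher, of satellite glia markers 2 of 9 lower, and of myelinating Schwann cell markers 2 of 8 lower, and the part of these cells in the differences was not tested. With the 4 Mtor fl/fl libraries lowest in macrophage markers left out, 10 members were lower and 3 higher, beside 17.9% and 18.4% of all genes. Without the 3 Mtor fl/fl libraries that stand apart, 4 were lower and 3 higher, beside 15.2% and 11.6%. Among single libraries, leaving out Mtor fl/fl baseline replicate 2, Mtor-cKO baseline replicate 4, or Mtor fl/fl day 7 replicate 3 or 5 gave 4 lower members, and leaving out baseline replicate 1 or 3 of either genotype gave 1 higher member, Mthfd1l. Of all genes, 6.13% to 9.78% were lower in the former fits and 5.35% to 6.92% higher in the latter.

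At day 7, 8 members were lower in Mtor-cKO than in Mtor fl/fl DRGs, Atf4, Ddit3, Chac1, Sesn2, Psat1, Mthfd2, Aldh1l2 and Slc1a4, and 1, Slc7a11, was higher, beside 13.1% and 12.9% of all genes. Aldh1l2 and Slc7a11 had entered the test only through the genotype in which they were higher, and without this pair 7 members were lower and 0 higher. Log2 fold changes of the 8 ran from -0.36 (Psat1) to -0.95 (Chac1), and none reached a fold of 2. The median was -0.12 over members and 0.03 over all genes. The injured Mtor fl/fl libraries also enter the injury comparison, so the counts of the comparisons are not independent. Injured neuron markers were lower for 2 of 8 genes, with sums of 1382.9 to 3106.7 FPKM in Mtor fl/fl and 1155 to 1756.6 FPKM in Mtor-cKO mice, and sensory neuron markers for 5 of 10, with sums of 3621.3 to 4918.2 and 3774.8 to 4181.7 FPKM. Endothelial and mural cell markers were higher for 4 of 8, with sums of 74.2 to 117.7 and 105.7 to 122.1 FPKM. All 9 skeletal muscle markers were higher, at 3.3 to 38.3 and 32.4 to 501.4 FPKM. Between 7 and 10 members were lower when any single library was left out, beside 9.8% to 15.1% of all genes. Without the 3 libraries highest in muscle markers 7 were lower, beside 9.75%. Without the 3 Mtor fl/fl libraries that stand apart, 12 members were lower and 5 higher, beside 21.6% and 23.5% of all genes. The part of cell composition in these differences was not tested. The call of Aldh1l2 was lost without Mtor-cKO replicate 4 (adjusted p = 0.0517). Without Mtor fl/fl baseline replicate 2 or 4 or day 7 replicate 5, 2 members were higher, beside 14% to 14.8% of all genes.

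No member passed for the interaction of injury and genotype, where 0.082% of all genes passed. At an unadjusted p under 0.05, 3 members had a positive and 5 a negative estimate, for which the share of all genes was not counted. DESeq2 called 1 in each direction, Gpt2 and Slc7a3, beside 0.962% of all genes in each. Without Mtor-cKO baseline replicate 4 or Mtor fl/fl baseline replicate 2, 1 positive estimate passed, beside 0.0745% and 0.283% of all genes. Without Mtor fl/fl day 7 replicate 5, 1 positive and 2 negative ones did, beside 0.612% and 0.276%. Without the 3 Mtor fl/fl libraries that stand apart the negative estimates of Asns, -0.43 (adjusted p = 0.0439), and Slc7a3 passed, beside 0.455% of all genes. The largest estimates were those of Slc7a3, -1.03 (adjusted p = 0.147), Ddit4, 1.00 (adjusted p = 0.293), Slc1a5, 0.96 (adjusted p = 0.293), and Gpt2, 0.93 (adjusted p = 0.0923). A call in only the Mtor fl/fl or only the Mtor-cKO mice is therefore no measured difference between them.

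**Figure D4:**
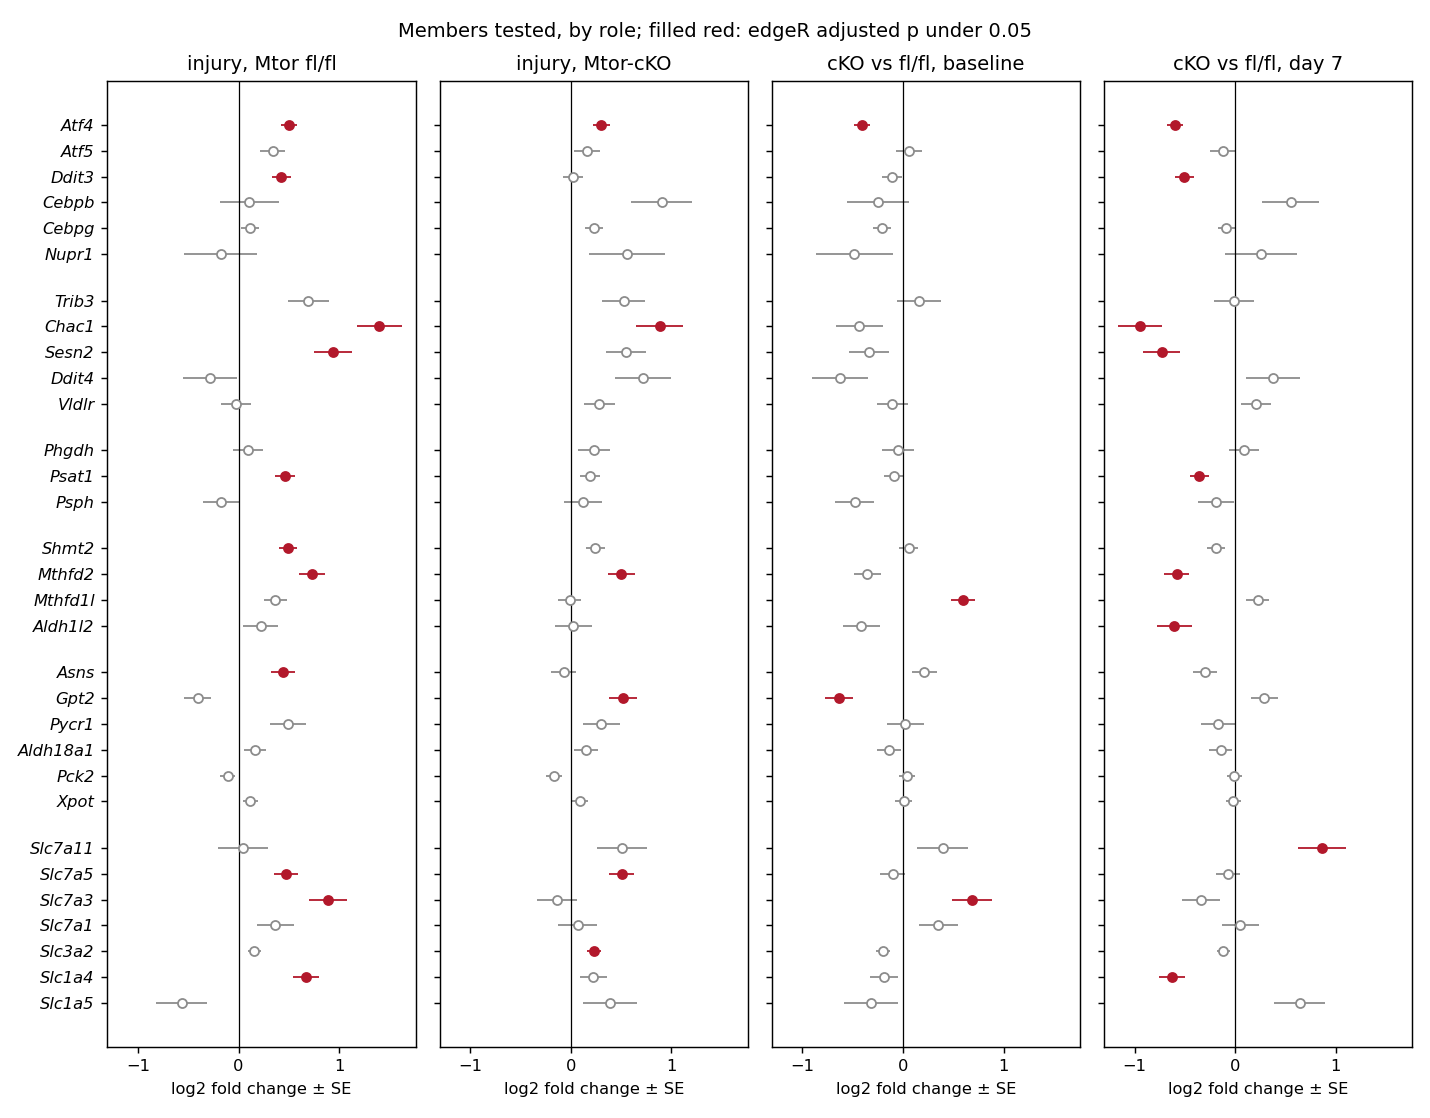
Log2 fold change ± SE of the 31 tested members in 4 comparisons, ordered by role, with red filled points at an edgeR adjusted p under 0.05 and grey open points otherwise. Calls with injury all lie to the right of 0, and 8 of the 9 calls between genotypes at day 7 lie to the left of it.

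Genes around the members were counted from lists of the same pathway, to be read against the shares of all genes called higher and lower: 4.66% and 2.58% with injury in Mtor fl/fl mice, 4.57% and 2.39% in Mtor-cKO mice, 7.97% and 7.91% between genotypes at baseline and 12.9% and 13.1% at day 7. With DESeq2 the injury shares were 6.1% and 4.3% in Mtor fl/fl and 6.73% and 6.9% in Mtor-cKO mice. At an unadjusted p under 0.05 the share of all genes was not counted for any of these lists, so such counts have nothing to be read against. Of 16 kinase, phosphatase and translation factor genes that set the eIF2 signal, none passed with edgeR or DESeq2 with injury in Mtor fl/fl mice (4 were higher at an unadjusted p under 0.05), and 1 rose in Mtor-cKO mice, Ppp1r15b, which encodes a constitutive eIF2 phosphatase subunit, by 0.24 (SE 0.06, adjusted p = 0.0309). That call was lost without Mtor-cKO baseline replicate 1, 2 or 3 or day 7 replicate 1, 3 or 4, with an adjusted p of up to 0.111. At baseline 1 of the 16 was lower in Mtor-cKO DRGs and 1 higher, near the shares of all genes. The latter, Eif2s3x, was higher by 0.44 (SE 0.07, adjusted p = 4.76e-04), and at day 7 by 0.27 (SE 0.07, adjusted p = 0.00664). The labels do not give the sex of the mice, and the part of sex in the Eif2s3x difference was not tested. At day 7, 4 of the 16 were lower in Mtor-cKO DRGs and 2 higher, the latter near the share of all genes. Ppp1r15a, the inducible phosphatase subunit GADD34 and itself a target of the pathway, was lower with a log2 fold change of -0.42 (SE 0.09, adjusted p = 0.00208), and Eif2s1, the phosphorylated subunit of eIF2, with -0.36 (SE 0.08, adjusted p = 0.00282).

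Cytosolic aminoacyl-tRNA synthetases load tRNAs with amino acids, and several are known ATF4 targets. Of 20, 1 rose with injury in Mtor fl/fl mice, near the 4.66% of all genes. It was Cars, by 0.45 (SE 0.13, adjusted p = 0.0437). With DESeq2 4 rose, and 11 were higher before adjustment, for which the share of all genes was not counted. None passed in Mtor-cKO mice with edgeR, with DESeq2 or before adjustment. The medians were 0.21 and 0.05. The Cars call was lost under 18 of 28 alternatives. At day 7, 3 were lower in Mtor-cKO DRGs, near the 13.1% of all genes, and 1 was higher. Those lower were Hars, at -0.46 (adjusted p = 0.00284), Gars, at -0.45 (adjusted p = 0.0164), and Rars, at -0.31 (adjusted p = 0.0214), which load histidine, glycine and arginine. The Rars call was lost without Mtor-cKO day 7 replicate 1 (adjusted p = 0.0502), 3 (0.0507) or 4 (0.0528) and without Mtor fl/fl day 7 replicate 3 (0.0527).

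Other genes described as targets of ATF4 or CHOP included the largest changes near the pathway. Of 14 tested, 4 rose in Mtor fl/fl mice and 5 in Mtor-cKO mice. Atf3, a transcription factor of injured axons, rose by 4.79 (SE 0.31, adjusted p = 1.16e-07) and 4.74 (SE 0.31, adjusted p = 3.67e-07) in the respective genotypes, and Gadd45a, a growth arrest gene, by 2.17 (SE 0.18, adjusted p = 1.90e-06) and 2.32 (SE 0.19, adjusted p = 1.99e-06). Cdkn1a, the cell cycle inhibitor p21, rose by 1.26 (SE 0.19, adjusted p = 6.31e-04) and 1.06 (SE 0.20, adjusted p = 0.00455). Tes rose too (adjusted p = 0.00124 and 2.31e-05), with log2 fold changes over the alternatives of 0.80 to 1.08 and 1.39 to 1.79. No gene of this list passed for the interaction. Atf3 and Gadd45a are also well known nerve injury genes, and their changes were many times those of Atf4 and the amino acid genes.

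Other amino acid transporters, those outside the member list, passed no test with injury in Mtor fl/fl mice (0 of 17 passed with edgeR or DESeq2, and at an unadjusted p under 0.05 there were 2 higher and 3 lower), and 1 did in Mtor-cKO mice, Slc38a2, the SNAT2 carrier, by 0.45 (SE 0.12, adjusted p = 0.0306). The Slc38a2 call was lost without Mtor-cKO baseline replicate 1, 2 or 3 or day 7 replicate 2 or 3, with an adjusted p of up to 0.108. Between genotypes 3 of 17 were lower and 2 higher at each time, which at day 7 is near the 13.1% and 12.9% of all genes. Slc7a7, the y+LAT1 light chain, was lower in Mtor-cKO DRGs, with log2 fold changes of -0.45 (SE 0.10, adjusted p = 0.00711) at baseline and -0.75 (SE 0.10, adjusted p = 6.70e-05) at day 7, and Slc7a6, the related y+LAT2 chain, was lower at day 7, at -0.66 (SE 0.11, adjusted p = 6.38e-04).

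Of 18 other serine, glycine and folate enzymes, 3 rose and 1 fell with injury in Mtor fl/fl mice and 2 rose in Mtor-cKO mice. Aldh1l1, the cytosolic counterpart of Aldh1l2 and a known glial gene, rose by 0.68 (SE 0.15, adjusted p = 0.0106) and 0.82 (SE 0.16, adjusted p = 0.00644), and Fpgs, which retains folates in cells, by 0.44 (SE 0.10, adjusted p = 0.00966) in Mtor fl/fl mice. Ahcy rose in both genotypes (adjusted p = 0.0402 in Mtor fl/fl and 0.00604 in Mtor-cKO mice), and its Mtor fl/fl call was lost under 19 of 28 alternatives. Of 21 genes of the ATF6 and XBP1 arms, the other branches of the unfolded protein response, none rose with injury in either genotype with edgeR or DESeq2 (1 and 3 were higher at an unadjusted p under 0.05), and 2 fell in Mtor fl/fl mice (5 with DESeq2, and 7 were lower at an unadjusted p under 0.05), the co-chaperones Dnajc3, at -0.24 (SE 0.06, adjusted p = 0.0273), and Dnajb11, at -0.21 (SE 0.06, adjusted p = 0.0494). The Dnajb11 call was lost under 24 of 28 alternatives and the Dnajc3 call under 9, both of them without Mtor fl/fl baseline replicate 3 (adjusted p = 0.0867 and 0.147). At day 7, 4 of the 21 were higher in Mtor-cKO DRGs and 1 lower, led by the chaperone Hsp90b1, 0.43 (SE 0.08, adjusted p = 0.00163). The difference between this list and the members was not tested.

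The Mtor fl/fl baseline libraries differed among themselves over most members. In replicates 3 and 4, 18 of the 31 members were above both of replicates 1 and 2, and 8 were below both. Nupr1, Slc1a5, Cebpb, Ddit4, Psph, Phgdh and Gpt2 were among the first, and Slc7a1, Aldh1l2, Mthfd1l, Slc1a4, Sesn2, Aldh18a1, Asns and Xpot were the second, the same libraries having less sensory neuron and more glial and macrophage transcript. Among the injured Mtor fl/fl libraries, replicate 3 held the highest value of 15 members and replicate 5 of 12. Replicate 3 had the highest sum of injured neuron markers, 3106.7 FPKM against 1382.9 to 1628.5 FPKM in the other 4. Whether marker levels account for these values was not tested.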

How the data were processed

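RNA was taken from the L4 and L5 DRGs of 17 mice and sequenced on a BGISEQ-500. Per the labels, the authors aligned reads with HISAT2 2.0.4 and Bowtie2 2.2.5 and quantified genes with RSEM 1.2.12. The submitters' processing notes name mm9 and the methods name another build, so no coordinate of the files was used. The authors deposited a table of expected counts per gene and a table of FPKM, in which values are scaled to transcript length and to the library. Of the expected counts 35.1% were not whole, and they were rounded. There was 1 row without a gene name, holding 0% of the counts, 28 symbols altered by a spreadsheet were mended, and 8 columns of no listed sample were not used.

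Genes whose mean reached 1 FPKM in any group were tested with the quasi-likelihood F test of edgeR 4.0.16 in R 4.3.3 (TMM normalisation, 1 coefficient per group, all 17 libraries), with Benjamini-Hochberg adjustment over all 13408 genes. A gene passed at an adjusted p under 0.05. Fold changes are injured over baseline or Mtor-cKO over Mtor fl/fl, and SEs are approximate, from the fold change and its F value. In simulated counts for the injury comparison in Mtor fl/fl mice, 179 of 200 changed genes were recovered with 7 false calls. Recovery of genes with fold changes as small as those of most members was not tested. Alternatives were DESeq2 1.42.0, RLE normalisation, the filterByExpr function or no filter, only the groups compared, a replicate block, limma 3.58.1 on log2(FPKM + 1) and log2(FPKM + 0.1), a fold above 2, and each library left out. Also left out were the 3 libraries highest in skeletal muscle markers and, chosen after seeing the data, the 3 Mtor fl/fl libraries that stand apart or the 4 Mtor fl/fl libraries lowest in macrophage markers.

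Library totals of 17060876 to 21076542 set the precision, and genes near 1 FPKM have the least. The labels do not say more of the mice than strain, genotype and time. The study used mice of both sexes, and the part of sex in the differences was not tested. In the main fit p-values set each group difference against a spread estimated over all 17 libraries. No pair of libraries agreed within sampling noise. The mean chi-square per gene between 2 libraries of a group is larger where they differ more. It ran from 3.8 to 87.87 in Mtor fl/fl and from 4.94 to 19.47 in Mtor-cKO groups, while the main fit shares 1 spread over both. Values were given in every library for members that passed in any comparison, and pathway genes were named from those with the smallest p. The members and lists were chosen with earlier results of these data known. The strand setting of the counting is not given in the sources used here, and reads of Atf5, Ddit3, Psph, Shmt2 and Slc7a3 can be shared with overlapping genes.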

Additional observations from a re-analysis of the deposited data

Results flagged for a closer look

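In 7 of the 124 sets made of 1 member and 1 group, a single library lay far from the others by Dixon's 95% criterion, and chance flags about 1 in 20 such sets. Chac1 was at 5.58 FPKM in Mtor fl/fl baseline replicate 3, against 3.47 to 3.75 FPKM in the other baseline libraries of that genotype. Of the injured Mtor fl/fl libraries, replicate 3 stood apart for 3 members: Sesn2 was at 4.49 FPKM (2.09 to 2.77 FPKM in the others), Mthfd2 at 27.82 FPKM (16.55 to 19.02 FPKM) and Aldh1l2 at 1.63 FPKM (1.09 to 1.23 FPKM). The same library had the highest sum of injured neuron markers. In Mtor-cKO baseline replicate 4, Slc7a11 was at 1.26 FPKM (0.69 to 0.78 FPKM in the others) and Slc3a2 at 56.98 FPKM (46.41 to 47.9 FPKM). Slc7a5 was at 28.62 FPKM in Mtor-cKO day 7 replicate 2, against 24.49 to 24.7 FPKM. All 7 were high values, and none of the 7 sets held a low library that met the criterion.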

How the results depend on the processing

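Under every alternative with a value other than a fold above 2, 4 of 11 injury calls in Mtor fl/fl mice, 2 of 4 genotype calls at baseline and 6 of 9 at day 7 were kept, and none of the 6 injury calls in Mtor-cKO mice. No called member changed direction. Below threshold, the injury estimate of Ddit3 in Mtor-cKO mice turned from 0.02 to -0.0138 with filterByExpr, and ranged from -0.0188 to 0.063 when a library was left out, being below 0 without Mtor-cKO baseline replicate 1. With 1 library left out, members higher and lower with injury numbered 9 to 13 and 0 to 1 in Mtor fl/fl and 0 to 7 and 0 in Mtor-cKO mice. Of all genes, 3.35% to 6.26% and 1.36% to 3.36%, and 2.28% to 6.06% and 0.612% to 3.95%, were called. Between genotypes they numbered 1 to 2 and 2 to 4 at baseline, beside 5.35% to 10.1% and 5.09% to 9.78% of all genes. At day 7 they numbered 0 to 2 and 7 to 10, beside 9.05% to 14.8% and 9.8% to 15.1%. Those of the interaction numbered 0 to 1 and 0 to 2, beside at most 0.612% and 0.276%.

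In this paragraph the share of all genes called in the same direction stands in brackets. At a fold above 2 it was counted only for genes higher with injury in Mtor fl/fl mice. Injury in Mtor fl/fl mice gave 4 higher members with only the groups compared (1.92%) and 1 at a fold above 2 (1.04%). It gave 1 lower member with DESeq2 (4.3%), 1 with the block (3.28%) and 2 without the libraries lowest in macrophage markers (3.5%). Injury in Mtor-cKO mice gave 15 higher members with only the groups compared (16.9%) and 13 without the 3 libraries that stand apart (15.3%). It gave 3 with filterByExpr (3.56%), no filter (2.89%) and either limma fit (4.26% and 4.17%). Without the libraries highest in muscle markers there was 1 (1.42%), and at a fold above 2 there were 0. At baseline, members higher in Mtor-cKO numbered 1 with only the groups compared (4.39%), 1 without the muscle libraries (3.6%) and 0 at a fold above 2. Members lower numbered 1 without the muscle libraries (4.02%) and 4 without the libraries that stand apart (15.2%). They numbered 10 without those lowest in macrophage markers (17.9%) and 0 at a fold above 2. At day 7, members higher numbered 2 with only the groups compared (12.6%), the block (16.4%) and either limma fit (15.5% and 15.3%). They numbered 5 without the libraries that stand apart (23.5%). They numbered 0 without the muscle libraries (8.96%), without those lowest in macrophage markers (12.4%) and at a fold above 2, where members lower were also 0. The interaction gave 1 higher and 1 lower member with DESeq2 (0.962% each) and 2 and 1 with the block (0.962% and 0.239%). It gave 2 and 1 without the libraries lowest in macrophage markers (1.6% and 0.54%), and 2 lower without the libraries that stand apart (0.455%). The cause of these shifts was not tested.

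The labels number the libraries within groups. Same-numbered libraries correlated at 0.07 to 0.58 in their deviations for injury in Mtor fl/fl, -0.45 to -0.08 in Mtor-cKO mice, -0.10 to 0.61 for genotype at baseline and -0.35 to -0.06 at day 7, so the numbers were not taken as pairs. With the number as a block, 13 members were higher and 1 lower with injury in Mtor fl/fl mice, beside 6.11% and 3.28% of all genes. In Mtor-cKO mice 6 and 0 were, beside 8.07% and 4.5%. Between genotypes 2 and 2 were at baseline, beside 10.1% and 9.45%, and 2 and 10 at day 7, beside 16.4% and 15.3%. Depth limits Slc7a11, Aldh1l2, Pycr1, Trib3 and Slc7a3 most, which lie near the filter.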
